A study of Rattus norvegicus with 12 samples.

Results

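The genes described here are 9 genes that mark resident microglia or carry the CSF1 receptor axis on which those cells depend: Csf1r, Csf1, Spi1, Aif1, Tmem119, Gpr34, Sall1, Olfml3 and Mertk. They were taken by gene symbol from a table of 30560 genes, all 9 were found once, and all 9 passed the filter on low counts. RNA of rat retina was sequenced from 6 rats injected into the vitreous with 2 µL of 20 mM NMDA and from 6 rats injected there with 2 µL of PBS, 1 library per rat. NMDA activates one class of receptors for the transmitter glutamate, whose overstimulation injures retinal neurons, and PBS is the salt buffer used as the vehicle control. All 12 eyes thus had an injection through the eye wall, and no uninjected retina was analysed here. The sources used here do not give the strain, age or sex of the rats, nor the time from injection to collection. Libraries are called NMDA 1 to NMDA 6 and PBS 1 to PBS 6, after the numbers in their labels.

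Microglia are the resident macrophages of the nervous system and, in the retina, lie mainly in the synaptic layers. Signals through the receptor encoded by Csf1r keep them alive. The receptor has a pair of ligands, CSF1 and IL-34, and the transcription factor PU.1, encoded by Spi1, drives the receptor gene in myeloid cells. Tmem119, Gpr34, Sall1 and Olfml3 are used in rodents to tell resting resident microglia from macrophages that come from blood, and transforming growth factor beta signals help to maintain that set. Outside microglia, Sall1 is also expressed in other neural and epithelial cells, and Mertk is needed in the retinal pigment epithelium to take up shed photoreceptor outer segments.

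Total counts ran from 16415611 to 34022023 per library. Of 16260 genes tested with edgeR's quasi-likelihood test, 6167 passed an adjusted p of 0.05, which is 37.9%, with 3315 higher and 2852 lower with NMDA. With scaling by library size only, 4233 were higher and 2323 lower, and the median change over all tested genes was 0.06 on the log2 scale, against 0.01 with the TMM factors used here. Markers of retinal neurons were abundant in every library: the sum over 9 of them, in CPM (counts after TMM scaling, relative to the library total), was 23860 to 37610 with NMDA and 38430 to 40830 with PBS, as in retina. NMDA 3 and PBS 5 stood apart in a list of 11 tested pigment epithelium and pigment genes, whose summed level was 780.9 CPM in NMDA 3 and 605.6 CPM in PBS 5, against group medians of 126 CPM with NMDA and 233.5 CPM with PBS. NMDA 1 and NMDA 3 lay at opposite ends of the second principal component. With NMDA 1, NMDA 3 or PBS 5 left out, or NMDA 3 and PBS 5 together, the number of genes called in each list given further on moved by at most 2, and Olfml3 was the only one of the 9 genes whose call changed, without NMDA 3.

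With NMDA, 5 of the 9 genes rose and none fell (edgeR, adjusted p below 0.05). The share of all tested genes that passed was 37.9%, and 20.4% passed in the higher direction. The 5 were the receptor gene Csf1r, its ligand gene Csf1, the myeloid factor gene Spi1, the macrophage gene Aif1 and the phagocytic receptor gene Mertk. The identity genes Tmem119, Gpr34, Sall1 and Olfml3 did not pass, and their log2 fold changes lay between -0.18 and 0.20. The median over the 9 genes was 0.31 on the log2 scale, against 0.01 over all tested genes. The groups did not overlap for Spi1 and Aif1, that is for 2 of 9 genes, where 18.1% of all tested genes had groups that did not overlap 9.43% with NMDA above and 8.66% with NMDA below. The retina was sequenced whole, so that fewer cells of a type and less RNA per cell cannot be told apart in any of these values, nor more cells from more RNA per cell.

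**Figure D1:**
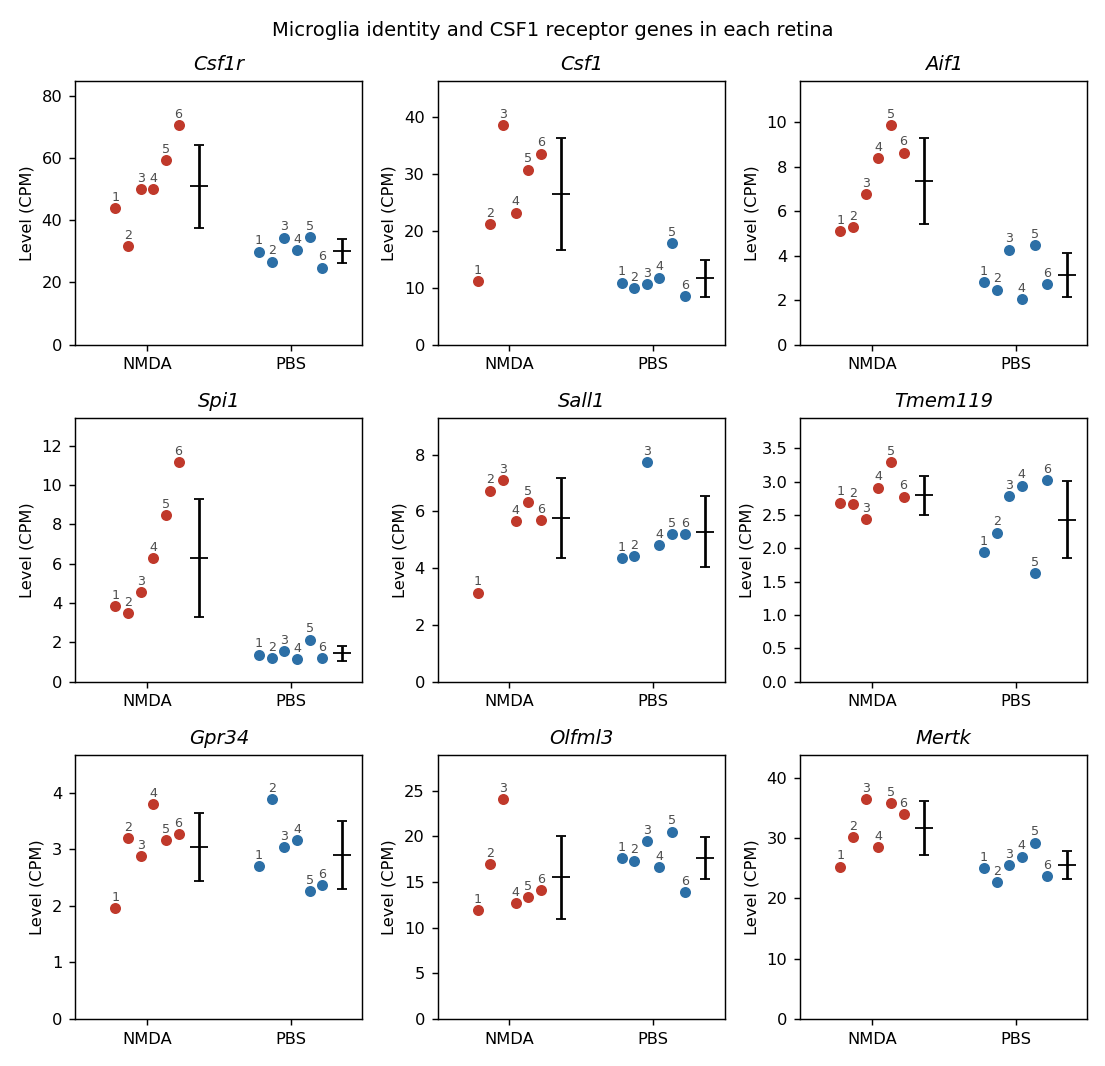
Level of each of the 9 genes in each library in CPM, on a linear axis from 0, with NMDA libraries on the left and PBS libraries on the right of each panel. Points are libraries and bars with whiskers the mean and SD of 6. All NMDA points lie above all PBS points for Aif1 and Spi1, and the groups overlap for the other 7 genes.

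Csf1r encodes the tyrosine kinase receptor for CSF1 and IL-34 (ENSRNOG00000018414, chromosome 18, 54546659 to 54590415 in the deposited table, whose build is not given). Its level in NMDA 1 to NMDA 6 was 44.0, 31.6, 50.0, 49.9, 59.4 and 70.7 CPM, against 29.9, 26.7, 34.4, 30.3, 34.7 and 24.8 CPM in PBS 1 to PBS 6. Every NMDA library except NMDA 2 lay above the highest PBS library, and NMDA 6 was the highest of all 12. The mean was 50.9 ± 13.3 CPM with NMDA and 30.1 ± 3.98 CPM with PBS (SD, n = 6 each). In linear terms it rose 1.69-fold, with a 95% interval of 1.32 to 2.16. On the log2 scale the change was 0.76 with an SE of 0.16 (edgeR adjusted p = 0.00306), and ± after a change means the SE from here on.

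The sequence at the start of the receptor gene is shown because PU.1, whose own gene rose with NMDA, is a factor known to act there. That of Gpr34, a gene that did not pass the test, is shown beside it because it holds the same letters. Promoters were taken from the RefSeq annotation of the rat build GRCr8, 250 bases before to 50 bases after the annotated start, on the gene's own strand, and 4 of the 9 genes were matched (Csf1r, Gpr34, Mertk and Olfml3). Capitals mark TTCCTC, which is the motif GAGGAA, a common core of PU.1 binding sites, read on the opposite strand. Csf1r lies at chr18:56834129-56834428 on the plus strand and Gpr34 at chrX:11785787-11786086 on the minus strand.
Csf1r: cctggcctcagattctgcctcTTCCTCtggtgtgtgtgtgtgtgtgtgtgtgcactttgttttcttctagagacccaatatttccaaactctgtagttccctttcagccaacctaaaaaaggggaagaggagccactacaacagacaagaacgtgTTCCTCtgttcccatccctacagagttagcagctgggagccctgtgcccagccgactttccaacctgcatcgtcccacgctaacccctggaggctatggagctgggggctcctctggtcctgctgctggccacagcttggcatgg
Gpr34: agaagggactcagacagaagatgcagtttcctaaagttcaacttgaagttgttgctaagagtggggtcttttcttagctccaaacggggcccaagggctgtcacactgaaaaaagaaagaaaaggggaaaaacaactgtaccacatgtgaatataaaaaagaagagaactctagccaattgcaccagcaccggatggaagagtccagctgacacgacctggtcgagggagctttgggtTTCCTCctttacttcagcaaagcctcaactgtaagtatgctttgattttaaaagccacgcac

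Searched on both strands, the Csf1r window held GAGGAA 2 times, at -229 to -224 and at -95 to -90 from the annotated start. The Gpr34 window held it 1 time, at -12 to -7, and the Olfml3 and Mertk windows did not hold it. Of 33469 RefSeq promoters of the same length, 27.6% held GAGGAA at least once and 4.83% at least 2 times, so that a match is common. The longer composite element bound by PU.1 together with interferon regulatory factors, searched in the same way, was in none of the 4 windows and in 2.94% of all promoters. A match describes letters in a window and is not evidence of a bound site. In the Csf1r window the bases from the annotated start on begin with atg, the codon that starts translation. Where transcription of Csf1r starts was not determined here, so these positions may not be distances from that point.

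Csf1 encodes colony stimulating factor 1, a ligand of the receptor (ENSRNOG00000018659, chromosome 2, 195377215 to 195411704). It was at 11.2, 21.2, 38.6, 23.2, 30.8 and 33.6 CPM in NMDA 1 to NMDA 6, against 10.9, 9.999, 10.7, 11.8, 17.9 and 8.53 CPM in PBS 1 to PBS 6. NMDA 1 lay within the PBS range, the other 5 NMDA libraries lay above it, and PBS 5 was the highest PBS library. The mean was 26.4 ± 9.87 CPM with NMDA and 11.6 ± 3.25 CPM with PBS, and the gene rose 2.27-fold (95% interval 1.51 to 3.42; log2 fold change 1.18 ± 0.27, edgeR adjusted p = 0.00472). Il34, the gene of the other ligand, which neurons make in the brain, was at 7.03 ± 1.53 CPM with NMDA and 7.56 ± 0.773 CPM with PBS and did not pass (log2 fold change -0.11 ± 0.14, edgeR adjusted p = 0.587). With the pigment epithelium markers as a covariate its log2 fold change was 0.02. This covariate is the mean log2 CPM of the listed markers, among them Rpe65, Rgr, Rrh, Ttr and Lrat, which fell with NMDA. It thus partly follows the treatment, here and further on, and fits with it cannot separate pigment cells from the effect of NMDA.

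Spi1 encodes PU.1, which sets up the macrophage and microglia lineages (ENSRNOG00000012172, chromosome 3, 77073012 to 77092393). Its level was 3.83, 3.47, 4.56, 6.29, 8.46 and 11.2 CPM in NMDA 1 to NMDA 6, against 1.39, 1.22, 1.55, 1.16, 2.14 and 1.22 CPM in PBS 1 to PBS 6. The lowest NMDA library lay above the highest PBS library. It rose 4.36-fold (95% interval 2.78 to 6.84), with a log2 fold change of 2.12 ± 0.30 (edgeR adjusted p = 0.000229), the largest change among the 9 genes.

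Aif1 encodes IBA1, the calcium-binding protein most used to stain microglia and macrophages (ENSRNOG00000000853, chromosome 20, 3646777 to 3652668). Levels were 5.10, 5.28, 6.77, 8.39, 9.88 and 8.63 CPM in NMDA 1 to NMDA 6, against 2.80, 2.47, 4.27, 2.03, 4.48 and 2.73 CPM in PBS 1 to PBS 6. NMDA 1 and NMDA 2 were the lowest of their group and were still above PBS 5, the highest PBS library. The log2 fold change was 1.24 ± 0.23 (edgeR adjusted p = 0.00101), a 2.36-fold rise with a 95% interval of 1.68 to 3.31.

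Mertk encodes a receptor of the TAM family, through which phagocytes bind dying cells by the bridging proteins GAS6 and protein S (ENSRNOG00000017319, chromosome 3, 115939351 to 116046554). Levels were 25.3, 30.2, 36.5, 28.5, 35.8 and 34.1 CPM in NMDA 1 to NMDA 6, against 25.0, 22.7, 25.5, 27.0, 29.3 and 23.7 CPM in PBS 1 to PBS 6. NMDA 1 and NMDA 4 lay within the PBS range and the other 4 above it. The rise was 1.24-fold (95% interval 1.08 to 1.43; log2 fold change 0.31 ± 0.09, edgeR adjusted p = 0.0174). NMDA 3 and PBS 5, highest in Mertk within their groups, also had the highest pigment epithelium sums. Without both libraries the log2 fold change was 0.31 (edgeR adjusted p = 0.0197), and with the pigment epithelium markers as a covariate it was 0.45 (edgeR adjusted p = 0.00211).

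**Figure D2:**
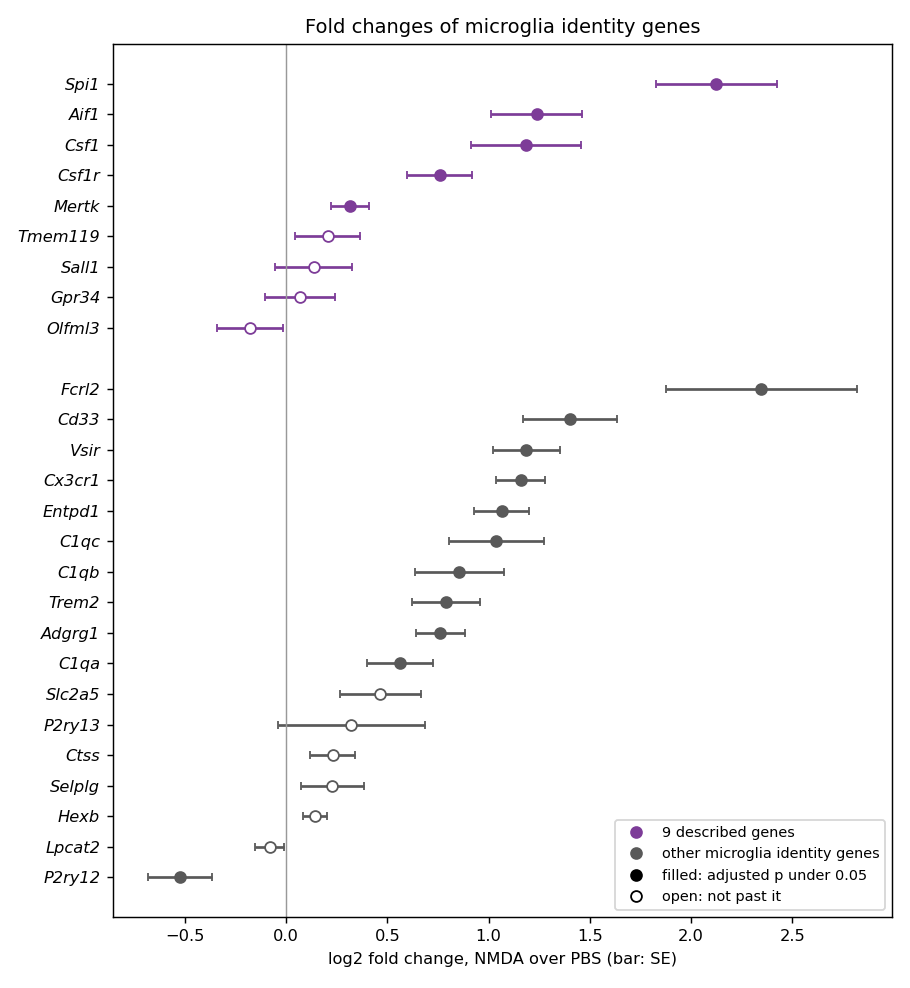
Log2 fold change, NMDA minus PBS, of each of the 9 genes and of the other tested microglia identity genes, from edgeR on the counts. Bars show the SE, and a line marks 0. Among the 9 genes, Spi1, Aif1, Csf1, Csf1r and Mertk have filled points (edgeR adjusted p below 0.05). Tmem119, Sall1, Gpr34 and Olfml3 have open points.

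The 4 identity genes gave the following levels. Tmem119 encodes a transmembrane protein of resident microglia (ENSRNOG00000000700, chromosome 12, 42828418 to 42835689). It was at 2.68, 2.66, 2.44, 2.91, 3.29 and 2.77 CPM in NMDA 1 to NMDA 6, against 1.95, 2.24, 2.78, 2.94, 1.63 and 3.03 CPM in PBS 1 to PBS 6. The groups overlapped, and PBS 5 was the lowest and NMDA 5 the highest library. The log2 fold change was 0.20 ± 0.16 (edgeR adjusted p = 0.352), and the 95% interval of the fold ran from 0.904 to 1.47.

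Gpr34 encodes a receptor for lysophosphatidylserine on microglia (ENSRNOG00000039759, chromosome X, 9104565 to 9148601). Its level was 1.95, 3.19, 2.87, 3.79, 3.16 and 3.26 CPM in NMDA 1 to NMDA 6, against 2.71, 3.88, 3.03, 3.16, 2.26 and 2.36 CPM in PBS 1 to PBS 6. NMDA 1 was the lowest and PBS 2 the highest of all 12 libraries. The log2 fold change was 0.07 ± 0.17 (edgeR adjusted p = 0.793), with a 95% interval of the fold from 0.809 to 1.36. Without NMDA 4 its log2 fold change was -0.0034. Gpr34 lies within the bounds of Cask, a gene with 15870 counts over the 12 libraries against 971 of Gpr34, and the strand setting was not given, so that the division of reads between them is uncertain. None of the other 8 genes overlapped a gene of the table.

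Sall1 encodes a zinc finger factor that in mouse brain keeps microglia in their resting identity (ENSRNOG00000013907, chromosome 19, 18007503 to 18022705). It was at 3.14, 6.73, 7.11, 5.67, 6.32 and 5.69 CPM in NMDA 1 to NMDA 6, against 4.36, 4.43, 7.74, 4.83, 5.20 and 5.21 CPM in PBS 1 to PBS 6. NMDA 1 stood below and PBS 3 above all other libraries. The log2 fold change was 0.14 ± 0.19 (edgeR adjusted p = 0.624), with a 95% interval of the fold from 0.824 to 1.46.

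Olfml3 encodes a secreted olfactomedin-like protein used as a microglia marker in mouse (ENSRNOG00000019211, chromosome 2, 191244221 to 191247050). Its level was 11.9, 17.0, 24.0, 12.7, 13.4 and 14.1 CPM in NMDA 1 to NMDA 6, against 17.6, 17.3, 19.5, 16.7, 20.5 and 13.9 CPM in PBS 1 to PBS 6. NMDA 3 was the highest of all 12 libraries and NMDA 1 the lowest. The log2 fold change was -0.18 ± 0.16 (edgeR adjusted p = 0.425), with a 95% interval of the fold from 0.693 to 1.13. This value depended on 1 library: without NMDA 3 it was -0.35 and passed (edgeR adjusted p = 0.0258), without NMDA 3 and PBS 5 it was -0.30 (edgeR adjusted p = 0.0524), and with the pigment epithelium markers as a covariate it was 0.09 (edgeR adjusted p = 0.487). The highest pigment epithelium sum was that of NMDA 3. The covariate partly follows the treatment, so the part of these cells in the Olfml3 level cannot be told from these fits. Per gene length the mean level of Olfml3 with PBS, given further on, was above that of Csf1r. Which cells carried its transcripts was not tested, so its values may not be those of microglia alone.

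**Figure D3:**
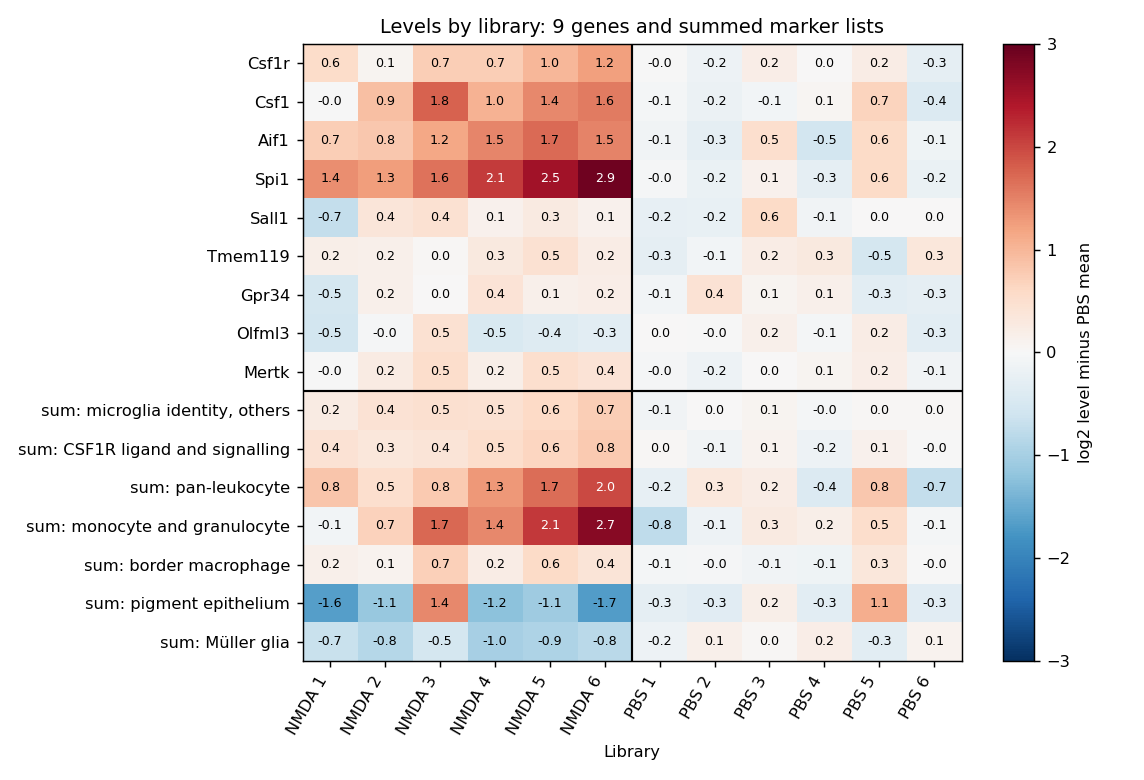
Level of each gene in each library as the log2 difference from its PBS mean, with NMDA libraries left of PBS libraries. Csf1r, Spi1 and Aif1 are above 0 in all NMDA libraries, and Csf1 in all but NMDA 1. Gpr34, Sall1 and Olfml3 hold values of either sign in that group, and Tmem119 holds values between 0.04 and 0.46.

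Whether the other genes moved as much as the receptor gene was asked with the log2 ratio of each gene to Csf1r within a library, which does not depend on how libraries are scaled. Differences were tested over all 924 assignments of the 12 libraries (two-sided exact permutation test, smallest p 0.00217), with adjustment over the 8 ratios. Spi1 rose relative to Csf1r: the ratio was -3.09 ± 0.34 with NMDA and -4.33 ± 0.21 with PBS (log2, SD, n = 6 each), a difference of 1.25 with no overlap (exact permutation p = 0.00217, adjusted 0.00866). Olfml3 fell relative to Csf1r, with a ratio of -1.71 ± 0.59 with NMDA and -0.78 ± 0.08 with PBS, a difference of -0.94 with no overlap (exact permutation p = 0.00217, adjusted 0.00866). The ratio of Aif1 was higher by 0.50 with NMDA (adjusted exact permutation p = 0.0381), and those of Gpr34, Sall1 and Mertk differed by -0.66, -0.61 and -0.42 (adjusted exact permutation p = 0.0381 for Gpr34, 0.0462 for Sall1 and 0.0381 for Mertk). The ratios of Tmem119 and Csf1 did not pass, with differences of -0.50 and 0.39 (adjusted exact permutation p = 0.0841 and 0.149). All 8 ratios share Csf1r and are not independent of each other. Csf1r itself rose by 0.76 on the log2 scale, whereas the changes of Gpr34 and Sall1 were 0.07 and 0.14. The lower ratios of Gpr34 and Sall1 thus mostly restate the rise of Csf1r.

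The differences kept their sign in all 15 alternatives run, but the calls depended on the libraries used. Leaving out 1 library in turn, which also leaves fewer assignments to test against, left between 1 and 7 of the 8 ratios past the threshold, against 6 with all libraries, and 2 passed without PBS 5 and NMDA 3. Among the 15 alternatives, Spi1 was the only gene whose ratio passed in every one, with differences from 1.16 to 1.39 and adjusted exact permutation p-values from 0.00433 to 0.0317. The ratio of Olfml3 missed the threshold without PBS 1, PBS 2, PBS 4 or PBS 6, with adjusted exact permutation p-values up to 0.0693. Its difference lay between -1.10 and -0.81 in all 15 alternatives. The differences of Aif1 lay between 0.39 and 0.59 and those of Gpr34 between -0.81 and -0.54. Without NMDA 1, the library with the lowest Csf1 level of its group, the difference of Csf1 was 0.58 and passed (adjusted exact permutation p = 0.0231).

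**Figure D4:**
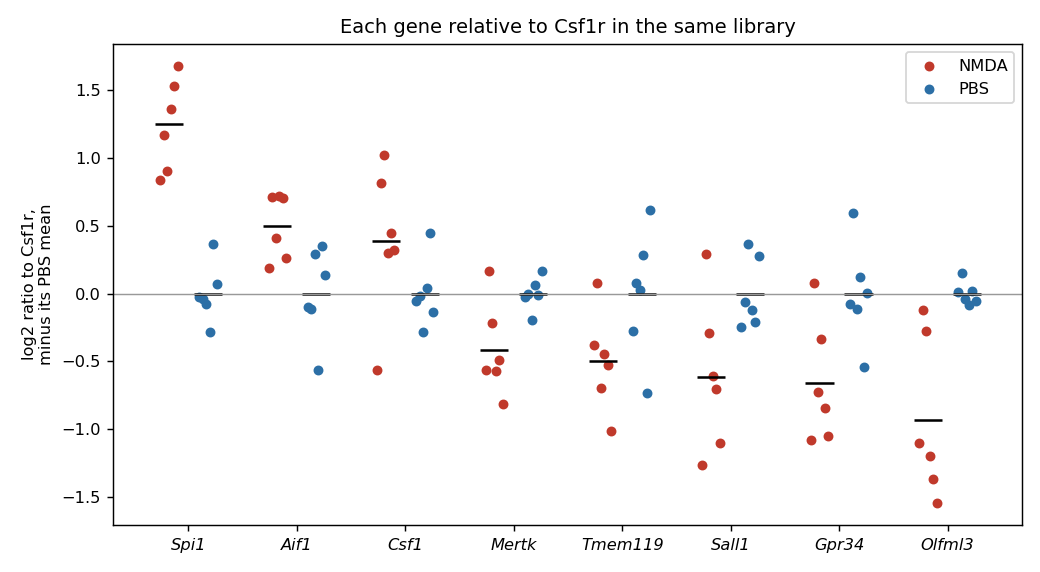
Log2 ratio of each of 8 genes to Csf1r within each library, shown as the difference from the mean ratio in the PBS libraries, NMDA left of PBS. The NMDA points of Spi1 all lie above the PBS points, those of Olfml3 all lie below them, and the groups overlap for the other 6 genes.

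Levels per gene length were read from the deposited FPKM values (counts scaled by gene length and library total). With PBS the mean order, high to low, was Olfml3 with 9.83 ± 1.33, Csf1r with 5.36 ± 0.731, Mertk with 4.81 ± 0.468, Csf1 with 1.50 ± 0.428, Aif1 with 0.859 ± 0.279, Spi1 with 0.689 ± 0.180, Gpr34 with 0.568 ± 0.117, Sall1 with 0.547 ± 0.130 and Tmem119 with 0.515 ± 0.122 FPKM (SD, n = 6). The ranges of Olfml3 and Csf1r were apart, as were those of Mertk and Csf1, and every other pair of neighbours in this order overlapped. With NMDA, Csf1r averaged 9.38 ± 2.54 FPKM and Olfml3 8.97 ± 2.61 FPKM, and Csf1r was the higher of the 2 in 4 of 6 libraries. Spi1, at 3.12 ± 1.53 FPKM with NMDA, was above Aif1, at 2.09 ± 0.575 FPKM, in 6 of 6 libraries. Sall1, Gpr34 and Tmem119 stayed the lowest genes with NMDA, at 0.620 ± 0.154, 0.617 ± 0.128 and 0.614 ± 0.0694 FPKM, values that did not differ beyond their spread. Il34 was at 4.32 ± 0.938 FPKM with NMDA and 4.49 ± 0.450 FPKM with PBS, so that its mean lay above that of Csf1 in each group.

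**Figure D5:**
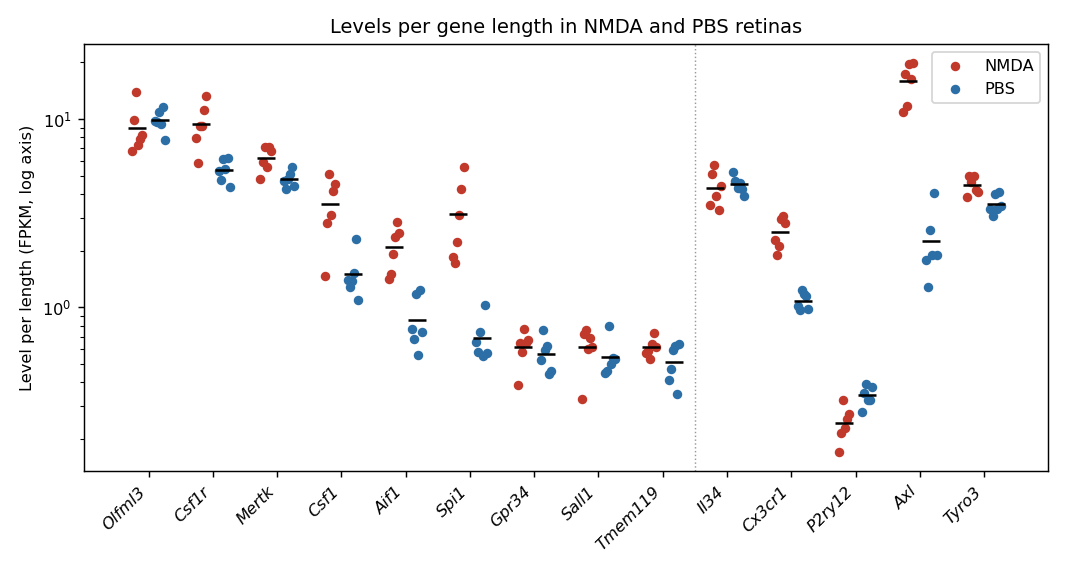
Level per gene length in FPKM of the 9 genes and, to their right, of Il34, Cx3cr1, P2ry12, Axl and Tyro3. The axis is log, NMDA stands beside PBS, points are libraries and bars the means. Among the 9 genes, Olfml3, Csf1r and Mertk hold the upper end, and Gpr34, Sall1 and Tmem119 the lower end below 1 FPKM.

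Among 12993 genes with a symbol and a mean log2 CPM of at least 1, the 5 whose levels over the 12 libraries most resembled Csf1r, after the group mean was taken off each gene, were Mrps18b, Nrros, Cd37, Cyth4 and Laptm5. As a description, Pearson's r (and Spearman's rho) was 0.952 (0.825) for Mrps18b, 0.946 (0.958) for Nrros, 0.926 (0.909) for Cd37, 0.923 (0.853) for Cyth4 and 0.921 (0.804) for Laptm5. Mrps18b encodes a mitochondrial ribosomal protein, Nrros a protein that presents latent TGF-beta on microglia, and Cd37, Cyth4 and Laptm5 encode proteins of white blood cells. Mrps18b did not differ between the groups beyond the threshold (log2 fold change 0.13, edgeR adjusted p = 0.505), while Nrros, Cd37, Cyth4 and Laptm5 rose by 1.11, 0.75, 1.60 and 1.45 on the log2 scale. With the group mean left in, 4 of the 5 were again among the top 5. By the same measure r was 0.884 for Spi1, 0.707 for Aif1, 0.570 for Csf1 and 0.559 for Mertk, and it was 0.158 for Sall1, 0.0856 for Gpr34, 0.0295 for Olfml3 and -0.0388 for Tmem119. Among these 8 genes the 4 with the highest r were the 4 that rose with NMDA. Csf1r varied more among NMDA libraries (SD 13.3 CPM) than among PBS libraries (SD 3.98 CPM), and removing group means leaves that variation in. The match is thus not independent of the rise itself. It did not hold throughout the other microglia identity genes read further on. There r was -0.10 for Trem2, which rose, and 0.688 for Selplg and 0.601 for Slc2a5, which did not pass. For Vsir and Cx3cr1, which rose, it was 0.845 and 0.794. All points share the libraries and their depth.

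Other genes were read by lists, given as counts beside the 20.4% of all tested genes called higher and the 17.5% called lower. Of 17 tested microglia identity genes outside the 9, 10 rose and 1 fell, with a median log2 fold change of 0.76, and their summed level was 280.9 to 393.8 CPM with NMDA and 219.2 to 251.2 CPM with PBS, with no overlap. The sum is weighted to abundant genes. Adgrg1, the highest of the list, was at 96.4 ± 17.5 CPM with NMDA and 56.9 ± 6.34 CPM with PBS. By the measure above, its r with Csf1r was 0.294. Cx3cr1, the fractalkine receptor gene, was at 20.7 ± 3.82 CPM with NMDA and 9.27 ± 0.937 CPM with PBS (log2 fold change 1.16 ± 0.12, edgeR adjusted p = 3.54e-05). Trem2, a lipid-sensing receptor gene, rose by 0.79 ± 0.17 (edgeR adjusted p = 0.00264), and the complement genes C1qa, C1qb and C1qc rose by 0.56, 0.86 and 1.04 on the log2 scale. The gene that fell was P2ry12, the purinergic receptor that lets resting microglia sense ATP. It was at 1.60 ± 0.330 CPM with NMDA and 2.32 ± 0.281 CPM with PBS (log2 fold change -0.52 ± 0.16, edgeR adjusted p = 0.0178). With the pigment epithelium markers as a covariate the value was -0.37 and did not pass (edgeR adjusted p = 0.0974). P2ry13, Selplg, Slc2a5, Ctss and Lpcat2 were among those that did not pass, although Slc2a5 passed without PBS 3 (log2 fold change 0.62, edgeR adjusted p = 0.0181) and Ctss without NMDA 2 (0.29, edgeR adjusted p = 0.0484), each in the higher direction.

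Of 13 tested genes of the other CSF1R ligand and of signalling below the receptor, 9 rose and none fell, with a median log2 fold change of 1.23. Tyrobp, the adaptor DAP12 that serves TREM2 and the CSF1 receptor, was at 9.75 ± 3.71 CPM with NMDA and 1.98 ± 0.594 CPM with PBS (log2 fold change 2.31 ± 0.27, edgeR adjusted p = 7.96e-05). Vav1, an exchange factor gene of blood cells, rose by 2.20, the phosphatase gene Ptpn6 by 1.55 and the kinase gene Syk by 1.52 on the log2 scale. These 4 genes are expressed in other white blood cells as well as in microglia.

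Of 10 tested myeloid transcription factor genes besides Spi1 and Sall1, 7 rose and 1 fell, with a median of 0.90. Irf8, a partner of PU.1, was at 12.8 ± 3.50 CPM with NMDA and 4.21 ± 1.25 CPM with PBS (log2 fold change 1.61 ± 0.22, edgeR adjusted p = 0.000217). Irf5 rose by 1.16 and Ikzf1, the lymphoid and myeloid factor Ikaros, by 1.87. Mef2c, which neurons also express, fell by 0.37 (edgeR adjusted p = 0.000772). The TGF-beta genes, tested because this arm maintains the identity set, had 6 of 13 higher and 1 lower, with a median of 0.29. The receptor genes Tgfbr2 and Tgfbr1 rose by 0.78 and 0.29, Nrros by 1.11 and Tgfb1 by 1.18, whereas the ligand gene Tgfb3 was at 7.96 ± 2.45 CPM with NMDA and 12.4 ± 2.25 CPM with PBS (log2 fold change -0.64 ± 0.18, edgeR adjusted p = 0.0147). With the pigment epithelium markers as a covariate the value of Tgfb3 was -0.45 and did not pass (edgeR adjusted p = 0.0659).

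Of 12 tested TAM receptor and efferocytosis genes besides Mertk, 7 rose and 2 fell, with a median of 0.19. Axl, the TAM receptor of activated phagocytes and of several other cell types, was at 106 ± 24.8 CPM with NMDA and 15.4 ± 6.61 CPM with PBS (log2 fold change 2.78 ± 0.27, edgeR adjusted p = 3.53e-05), with no overlap. In FPKM, Axl averaged 15.9 ± 3.86 with NMDA and 2.25 ± 0.974 with PBS, and thus stood above Mertk with NMDA and below it with PBS by the mean. Tyro3, the other TAM receptor gene, and Pros1, which encodes protein S, were chosen for their family after their values were seen. Tyro3 rose by 0.28 (edgeR adjusted p = 0.0219), a call lost without NMDA 2, NMDA 4 or PBS 2. Pros1 rose by 0.55 (edgeR adjusted p = 0.0315), a call lost without NMDA 3, NMDA 5, NMDA 6, PBS 1, PBS 2, PBS 3, PBS 4 or PBS 6, with values from 0.46 to 0.55. Gas6, the other bridging ligand gene, fell by 0.23 (edgeR adjusted p = 0.00818), and the engulfment genes Elmo1 and Dock1 went opposite ways, at -0.44 and 0.45 (edgeR adjusted p = 0.000270 and 0.000489).

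Markers of other cells moved in the same libraries. Of 10 tested pan-leukocyte genes 9 rose, with a median log2 fold change of 1.96, and their summed level was 142.6 to 395 CPM with NMDA and 60.84 to 176.4 CPM with PBS. Vav1 and Ptpn6 are among these 9 and were also counted in the signalling list above, so the counts of both lists are not separate. Ptprc, which encodes CD45, was at 18.8 ± 8.14 CPM with NMDA and 3.04 ± 1.63 CPM with PBS (log2 fold change 2.64 ± 0.38, edgeR adjusted p = 0.000303), and Cd53 rose by 2.21. Fcer1g, at 47.8 ± 25.1 CPM with NMDA and 49.9 ± 30.6 CPM with PBS, was the member that did not pass. Of 9 tested monocyte and granulocyte genes 8 rose, with a median of 3.08 and a summed level of 53.74 to 376 CPM with NMDA and 33.06 to 81.37 CPM with PBS. Ly6c, Lyz2 and Plac8 rose by 3.63, 3.08 and 2.52 on the log2 scale. NMDA 6, the library with the highest Csf1r and Spi1 levels, had the highest sums of both lists. No tested marker of these lists was at 0 in a whole group, S100a8 and Cd177 had too few counts to be tested, and the part of blood-derived cells in the rise of Csf1r, Spi1 and Aif1 was not tested.

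Border macrophages, which lie along vessels and in the membranes around neural tissue, had 2 of 8 tested markers higher and none lower. Folr2 was at 3.28 ± 1.58 CPM with NMDA and 0.505 ± 0.422 CPM with PBS (log2 fold change 2.71 ± 0.49, edgeR adjusted p = 0.00107). Mrc1 rose by 1.61 (edgeR adjusted p = 0.0244) and by 2.21 without PBS 5, and the call was lost without NMDA 3, NMDA 5, PBS 1, PBS 2, PBS 4 or PBS 6, with values from 1.399 to 1.556. Leaving out 1 library in turn gave between 1 and 4 called markers, 4 without NMDA 1 or PBS 5 and 1 without NMDA 5, PBS 1, PBS 2, PBS 4 or PBS 6. The summed level of the list was 43.27 to 66.62 CPM with NMDA and 37.11 to 51.06 CPM with PBS. Of 11 tested pigment epithelium genes none rose and 5 fell: Rpe65, Rgr, Ttr, Rrh and Lrat, by 1.67, 1.36, 1.14, 1.29 and 0.98 on the log2 scale. The call of Lrat was lost without NMDA 2, NMDA 4, NMDA 5 or PBS 3, where it was -0.73. Their summed level reached from 89.88 CPM in NMDA 6 to 780.9 CPM in NMDA 3 with NMDA, and from 226.1 to 605.6 CPM with PBS.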

How the data were processed

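Total RNA of rat retina was measured in 12 libraries, 6 with NMDA and 6 with PBS, each from a separate rat per the labels. Whole-number counts per gene were deposited by the authors, per the file headers, beside FPKM values (scaled by gene length and library total) that the authors made, per the file headers. Bowtie2, RSEM 1.3.1 and DESeq2 1.4.5 are named in the submitters' processing notes without roles; the sources used here do not give the genome build, the strand setting or the handling of reads with several matches, so that reads of overlapping genes are uncertain. Table positions are printed as deposited.

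Genes were kept by filterByExpr (count minimum 10, total minimum 15), scaled by TMM and compared by the two-sided quasi-likelihood test of edgeR 4.0.16 (robust; Benjamini-Hochberg over all 16260 tested genes, threshold 0.05) in R 4.3.3. CPM are counts scaled by TMM to a common total, and SEs and intervals come from the fit. Ratios to Csf1r used log2 CPM with prior count 2. FPKM were described and not tested, except in the alternatives. On simulated counts of 16201 genes for this comparison the test recovered 55.7% of log2 changes of 0.5, 93.2% of changes of 1 and 97.2% of changes of 2, with 2.98% of calls false. The simulation changed only 70, 59 and 71 genes by these amounts, all among better-counted genes, whereas 6167 genes were called in the data. Adjustment was therefore stricter there, and these rates do not carry over to the data. Smaller changes of the identity genes can have been missed, at a rate not known. No 2 libraries of a group held identical counts. Equal replicate numbers did not pair rats, by the labels or the counts.

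The 9 genes and the lists were chosen with earlier results of these data known. Named genes were the 9, Il34, from each list up to 4 members of lowest adjusted p and those against the list's main direction, any member of the identity and pigment epithelium lists, and the 5 genes most like Csf1r. Cebpa, Timd4, Rdh5 and Cldn5 were not matched, and Siglech, Hcst, Pf4, S100a8 and Cd177 did not pass the filter. Fcrls was read as Fcrl2. Vav1, Ptpn6, Itgav and Stab1 each stood in a pair of lists and were counted in each. Alternatives were DESeq2 1.42.0 (size factors, Wald test), limma 3.58.1 (voom, trend on log2(FPKM + 1) and log2(FPKM + 0.1)), library size only, other filters, each library left out, PBS 5 and NMDA 3 left out together, the replicate number as a block, and a pigment epithelium covariate. Some members of the lists are counted but not reported here by name.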

Additional observations from a re-analysis of the deposited data

Results flagged for a closer look

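Of 34 groups of 6 libraries examined for a library far from the rest, 3 had one, and chance alone gives about 1 in 20. Csf1 was at 17.9 CPM in PBS 5, against 11.8 CPM in the next highest PBS library. PBS 5 also had the highest pigment epithelium sum of its group, and without it Csf1 had a log2 fold change of 1.35, against 1.18 with all libraries. Sall1 was at 3.14 CPM in NMDA 1, against 5.67 CPM in the next lowest NMDA library. Sall1 was at 7.74 CPM in PBS 3, against 5.21 CPM in the next highest PBS library. PBS 3 had the lowest total count of the 12, 16415611. The causes of these values were not tested.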

How the results depend on the processing

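Of 202 values of the 9 genes under the alternatives, 199 kept their direction and their side of the threshold. The exceptions were Olfml3 without NMDA 3, which made the count of genes called lower run from 0 to 1 when 1 library was left out, Olfml3 with the pigment epithelium covariate (0.092) and Gpr34, which ran from -0.0034 without NMDA 4 to 0.17 without PBS 2. Il34 also turned, to 0.022, with that covariate. With a filter of at least 10 CPM in 6 libraries, 3 of the 9 genes were called higher and 51 list genes were called, against 91; by construction fewer genes were tested, and Aif1, Spi1, Tmem119, Gpr34 and Sall1 had no value. Of 120 ratios under the alternatives 70 kept their call, 46 lost it and 4 gained it. Ratios past the threshold numbered 1 to 7 with 1 library left out and 2 without PBS 5 and NMDA 3; the cause was not tested. Genes called among all tested numbered 4565 to 7103. Correlations of same-numbered libraries ran from -0.19 to 0.153, and 0 of 6 correlated best with their own number. With the replicate block 5593 genes were called, 5 of the 9 genes rose, Csf1r had a log2 fold change of 0.72 and Spi1 one of 2.03, and Tyro3 lost its call. What depth limits was not compared between genes.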

Other observations

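Genes of DNA replication and cell division, a list that bears on dividing microglia but is not particular to any cell type, rose in 8 of 12 tested members and fell in none (edgeR, adjusted p below 0.05), with a median log2 fold change of 0.90. Of all tested genes, 20.4% were called higher and 17.5% lower. Their summed level was 106.5 to 159.1 CPM with NMDA and 83.29 to 97.32 CPM with PBS, without overlap. Mcm3, a subunit of the replicative helicase, was at 11.5 ± 2.07 CPM with NMDA and 5.30 ± 1.29 CPM with PBS (SD, n = 6 each; log2 fold change 1.12 ± 0.16, edgeR adjusted p = 0.000259). Mcm2, of the same helicase, rose by 0.56, the sliding clamp gene Pcna by 0.34 and the ribonucleotide reductase gene Rrm2 by 1.31. The cells that carried these transcripts cannot be told from retina sequenced whole.

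The counts of the next lists stand beside the same shares of all tested genes, 20.4% higher and 17.5% lower. Of 8 tested endothelial genes 4 rose and none fell, with a median of 0.45. The VEGF receptor gene Flt1 was at 70.8 ± 13.5 CPM with NMDA and 46.5 ± 4.17 CPM with PBS (log2 fold change 0.60 ± 0.11, edgeR adjusted p = 0.00114), and Pecam1, Emcn and Tek rose by 0.47, 0.55 and 0.43. With the pigment epithelium markers as a covariate the change of Pecam1 was 0.29 and did not pass (edgeR adjusted p = 0.0624). Of 8 tested Müller glia genes 5 fell and 1 rose, with a median of -0.60. The glutamine synthetase gene Glul was at 1220 ± 190.2 CPM with NMDA and 2528 ± 523.6 CPM with PBS (log2 fold change -1.05 ± 0.14, edgeR adjusted p = 0.000213), Rlbp1, Dkk3 and Slc1a3 also fell, and the transcription factor gene Sox9 rose by 0.23. Of 9 retinal neuron genes 7 fell and none rose, with a median of -0.44.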
